A study of Homo sapiens with 42 samples.

Results

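The genes described here are 9 components of the glutathione and NRF2 antioxidant system, namely GCLC, GCLM, NQO1, HMOX1, TXNRD1, SRXN1, GPX4, GSR and NFE2L2. They were taken by symbol from a table of raw read counts that holds 58869 genes, and each symbol matched 1 row. Polyadenylated RNA was sequenced from 2 human acute myeloid leukaemia lines, OCI-AML3, labelled NPM1c+ for mutant nucleophosmin, and NOMO1, labelled KMT2A-r for a rearranged KMT2A gene. The study asked how the menin inhibitor VTP-50469 and the MEK inhibitor selumetinib change gene expression alone and together. With 3 libraries in each of 7 groups per line there were 42. The groups were DMSO vehicle at day 3 and day 6, VTP-50469 at 100 nM at day 3 and day 6, selumetinib at 100 nM, and both drugs at day 3 and day 6. Selumetinib was given for 1 day according to the protocol, whereas the titles of its libraries name day 1 for replicate 1 and day 3 for the others, and how long it was present in the combination was not stated. Every group of a line carries that line's genotype, and each line is 1 model of its leukaemia. Separate cultures are not stated for replicate libraries, so p-values measure the spread between these libraries, which may be technical.

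NRF2, encoded by NFE2L2, is a transcription factor that KEAP1 holds at a low level by marking it for degradation. Under oxidative or electrophilic stress it escapes KEAP1, pairs with small MAF proteins and binds antioxidant response elements beside genes for glutathione synthesis, thioredoxin reduction, quinone detoxification and haem breakdown. BACH1 is a haem-regulated repressor that competes for the same elements, with HMOX1 as its best known target. In myeloid cells, haem oxygenase is also a product of macrophages, which recycle iron. NRF2 is regulated mainly through its protein, which RNA counts do not show.

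Antioxidant response elements were looked for in the 250 bases before the start sites that RefSeq gives on GRCh38.p14, since most of the 9 genes are known NRF2 targets. The core searched was TGACNNNGC on both strands, and 3830 of 35116 such windows of all genes (10.91%) held it. Of the windows of these genes, it was in that of GCLM and in both of those of TXNRD1. It was not in the single windows of GCLC, NQO1 and SRXN1, the 2 of NFE2L2 or the 3 of GPX4, which says only that these letters are not in that stretch. For HMOX1 and GSR no window was available, so they were not searched. The AP-1 core TGANTCA, which a longer antioxidant response element can hold, was in 6.57% of all windows and in none of these. The stretches below are shown because they are where the core lies in these genes. They are read 5′ to 3′ on the strand of the gene, and capitals mark the core. The GCLM stretch is chr1:93909456-93909509 (minus strand) and ends 26 bases before the RefSeq start site, on what is the first exonic base of the gene in GENCODE 29, whose start site lies farther upstream. The TXNRD1 stretches are chr12:104215635-104215733 and chr12:104286920-104286948 (plus strand).
GCLM: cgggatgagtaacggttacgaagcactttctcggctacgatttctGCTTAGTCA
TXNRD1, first start site: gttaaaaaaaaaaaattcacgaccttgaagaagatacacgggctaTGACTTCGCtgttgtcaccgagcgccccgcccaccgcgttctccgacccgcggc
TXNRD1, second start site, in an annotated exon: gtggatttctGCTTTGTCAttctgactct
In GCLM and at the second TXNRD1 start site the core is on the opposite strand, where it reads TGACTAAGC and TGACAAAGC. A match of letters is a description and not a measured binding site.

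The libraries held 15264862 to 29168628 counts assigned to genes. All 9 genes passed the filter on low counts in both lines. The vehicle libraries of NOMO1 at day 3 stood apart: 17.754% ± 0.197 (SD, n = 3) of their counts came from mitochondrially encoded genes, against 3.174% ± 0.48 in NOMO1 DMSO day 6 and group means from 3.447% to 6.333% in treated NOMO1. In OCI-AML3 the share was 2.527% and 3.237% in the DMSO groups and reached 12.26% ± 2.265 with the combination at day 6. Among the 3 VTP-50469 day 3 libraries, replicate 2 of OCI-AML3 and replicate 1 of NOMO1 differed from the other two. Of 8 markers of leukaemic myeloid cells, 7 or 8 were above 1 CPM in every group. In OCI-AML3, VTP-50469 day 6 libraries held epithelial and collagen transcripts, as NOMO1 libraries of every group did, and the values stand beside NQO1. Because of the NOMO1 day 3 vehicle, the day 6 comparisons come first, and NOMO1 comparisons against DMSO day 3 are given also against DMSO day 6.

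Levels are given as CPM, read counts relative to the library total after TMM scaling within a line, and genes are placed on GRCh38 by GENCODE 29. A gene is called where its adjusted p in edgeR's quasi-likelihood test is below 0.05, after Benjamini-Hochberg adjustment over all genes tested, and differences are log2 fold changes with their standard error (SE). A lack of overlap between the libraries of 2 groups is a description and not a call. Its share over all genes is not given, so by itself it is not evidence of a change. Divided by the length of annotated exon, the mean DMSO day 6 levels in OCI-AML3 ran from 148 CPM per kb for GPX4 through 33.1 for GSR, 24.7 for TXNRD1, 10.8 for NFE2L2, 5.85 for GCLM, 3.37 for NQO1 and 2.37 for GCLC to 0.181 for HMOX1. In NOMO1 the per-length levels were 79.6 CPM per kb for GSR, 79.3 for GPX4, 26.6 for TXNRD1, 8.62 for NFE2L2, 4.07 for NQO1, 3.27 for GCLM, 2.04 for GCLC and 1.56 for HMOX1. In the test between the lines, 6 of 9 genes were called between DMSO day 6 libraries, where 61.3% of all genes were called. That count is close to the background share. This test scaled the libraries of both lines together, whereas the per-length levels are scaled within a line. Those levels can therefore not be compared directly between the lines, and their ratios differ from the tested differences. On the log2 scale HMOX1 was higher in NOMO1 by 3.45 (SE 0.49, adjusted p = 2.09e-07), GSR by 1.65, NQO1 by 0.66 and TXNRD1 by 0.49, whereas GPX4 and GCLM were lower, at -0.51 and -0.46. No per-length level is given for SRXN1 (chr20:646615-653370), since 2292 of its 2698 exonic bases also belong to AL121758.1 on the same strand, so that its reads could be split between the 2 genes or go uncounted.

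At day 6 HMOX1 rose in both lines, NQO1 and GCLM were called higher in OCI-AML3 only, and GCLC rose by more in NOMO1. In OCI-AML3, VTP-50469 raised 7 of the 9 genes and lowered none, with 34.7% of all genes called. Their median log2 fold change was 0.42, beside 0.01 for all genes. The combination raised 4 in that line (GCLM, GSR, NQO1 and HMOX1) and lowered none, with 49.6% of all genes called. In NOMO1, VTP-50469 raised 4 (GCLC, GSR, HMOX1 and NFE2L2), where 48.8% of all genes were called, and the combination raised 5 (GCLC, HMOX1, NFE2L2, SRXN1 and TXNRD1) and lowered NQO1, where 55.4% were called. The NOMO1 counts and the OCI-AML3 combination count are close to that background share. The 2 treatments of a line share their DMSO libraries.

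**Figure D1:**
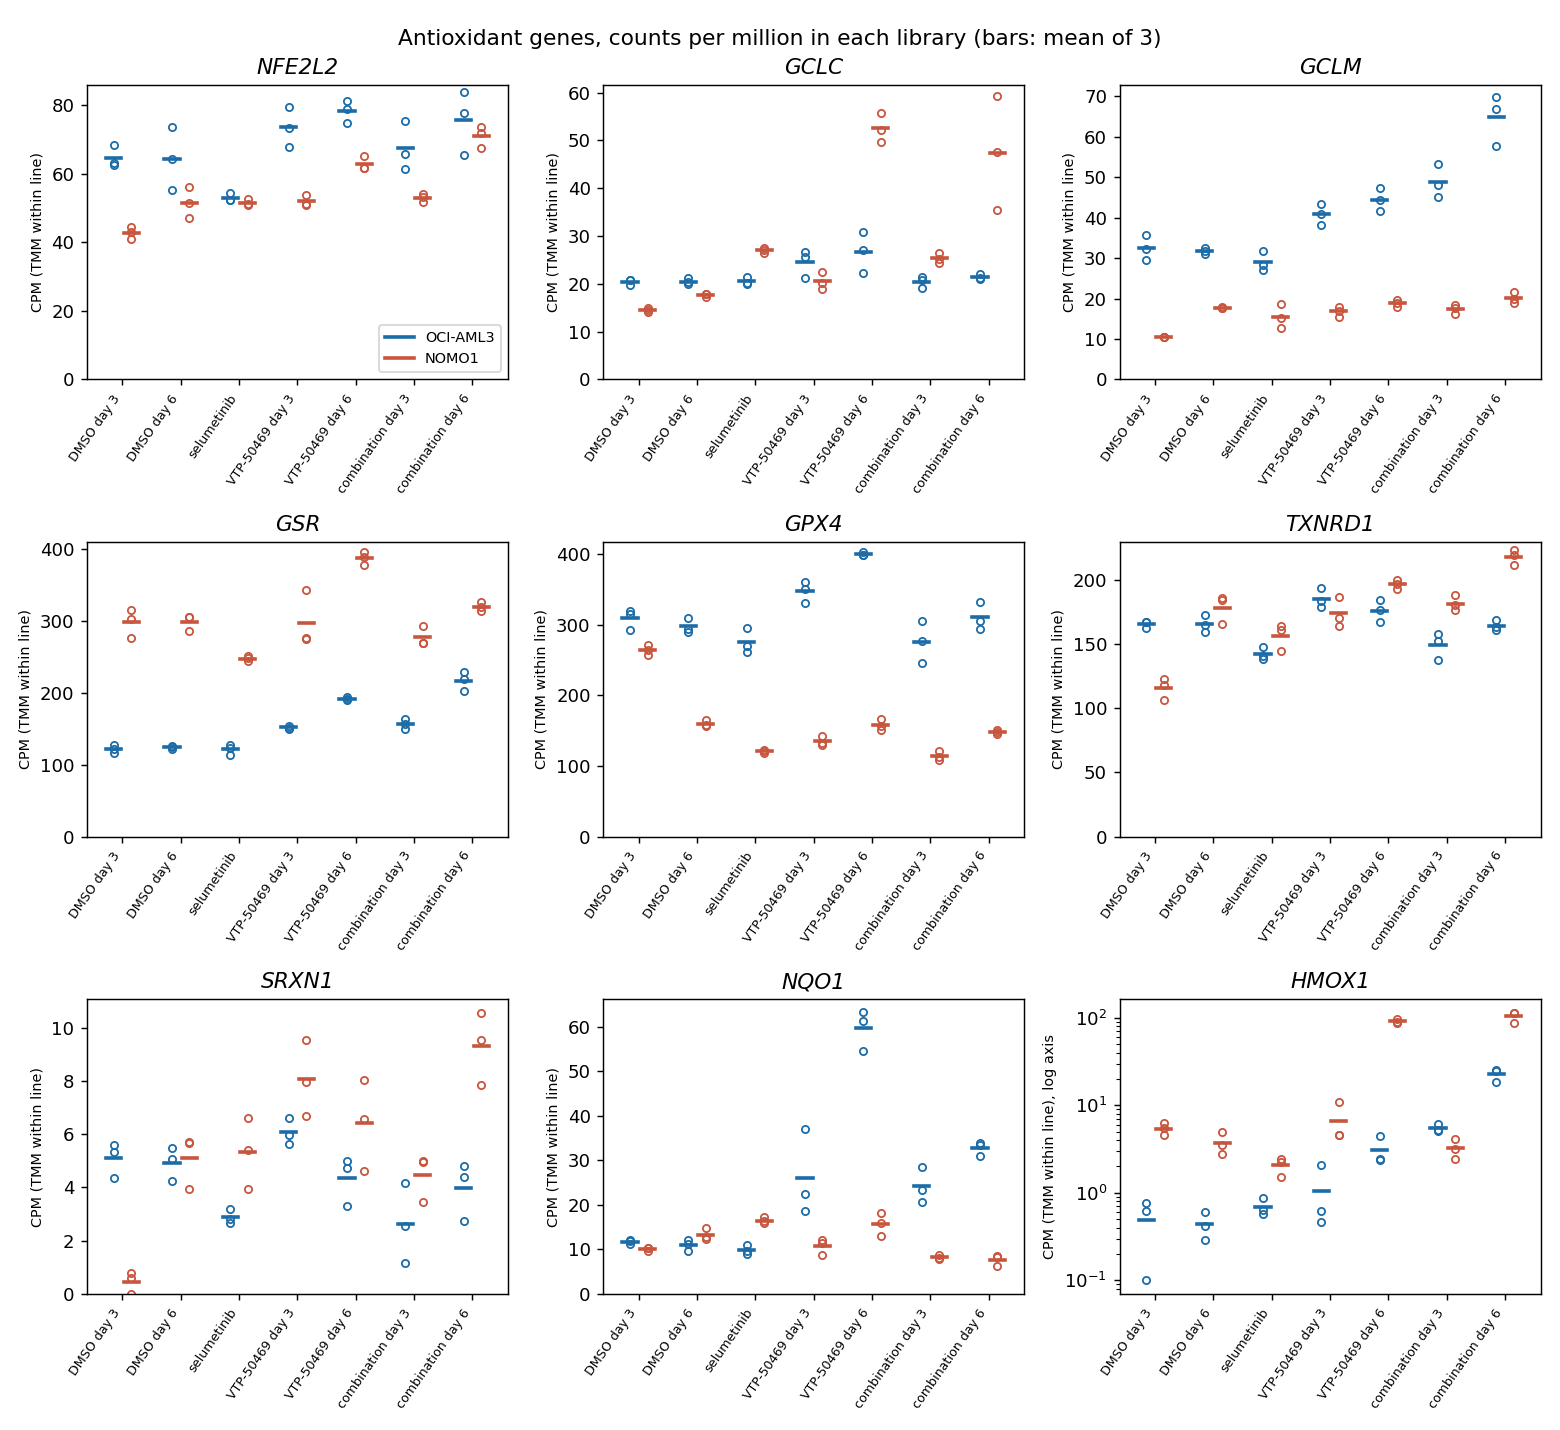
CPM of the 9 genes in every library, by group, for OCI-AML3 (blue) and NOMO1 (red). Circles are libraries and bars the mean of 3. The HMOX1 axis is logarithmic and the others start at 0. HMOX1 lies at 87.7 CPM or above in all NOMO1 libraries of the day 6 VTP-50469 and combination groups, and NQO1 reaches its highest values in OCI-AML3 with VTP-50469 at day 6.

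HMOX1 (chr22:35380361-35394214), the inducible haem oxygenase that splits haem into iron, carbon monoxide and biliverdin, was near the limit of detection in OCI-AML3. Its levels were 0.755, 0.0997 and 0.613 CPM in DMSO day 3 and 0.413, 0.288 and 0.603 in DMSO day 6, the latter from 5 to 11 reads a library. With VTP-50469 they were 0.619, 2.06 and 0.46 CPM at day 3 and 2.38, 2.41 and 4.51 at day 6. The combination gave 5.28, 5.12 and 6.11 CPM at day 3 and 18.7, 25.5 and 24.7 at day 6. No library of either day 6 treatment overlapped DMSO day 6, while the VTP-50469 day 3 libraries overlapped their vehicle. The day 6 log2 fold changes were 2.82 (SE 0.49, adjusted p = 3.36e-05) for VTP-50469, a 7.07-fold rise, and 5.69 (SE 0.48, adjusted p = 8.5e-11) for the combination, a 51.7-fold rise. Adding selumetinib to VTP-50469 raised it by 2.38 (SE 0.42) at day 3 and by 2.87 (SE 0.39, adjusted p = 8.27e-07) at day 6, whereas selumetinib alone gave 0.634, 0.578 and 0.861 CPM and overlapped DMSO. By group mean the order in OCI-AML3 was DMSO day 6, DMSO day 3, selumetinib, VTP-50469 day 3, VTP-50469 day 6, combination day 3 and combination day 6. The libraries of the first 4 overlapped, and those of each later group lay above all of the one before.

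In NOMO1 the HMOX1 rise was called at day 6 and not at day 3, and a further rise with selumetinib was not called. The levels were 4.94, 2.81 and 3.53 CPM in DMSO day 6, 89.6, 87.7 and 97 with VTP-50469 day 6 and 88.3, 115 and 115 with the combination day 6. Neither treated group overlapped DMSO, and the 2 treated groups overlapped each other. Against DMSO the log2 fold changes were 4.62 (SE 0.29, adjusted p = 5.75e-10) and 4.83 (SE 0.29, adjusted p = 1.75e-10). The combination differed from VTP-50469 by 0.21 (SE 0.23, adjusted p = 0.553). At day 3 the levels were 4.55, 5.5 and 6.23 CPM in the vehicle, 10.8, 4.63 and 4.54 with VTP-50469 and 3.15, 4.18 and 2.42 with the combination, so that only replicate 1 of VTP-50469 lay above the vehicle and the combination lay below it. That replicate was also the highest of its group for SLC7A11, the cystine importer, at 41.4 CPM against 12.3 and 15.2. Selumetinib alone gave 2.28, 1.52 and 2.41 CPM, below every DMSO library of either day. That difference was called against DMSO day 3 (-1.36, SE 0.36, adjusted p = 0.00372) and not against DMSO day 6 (-0.82, adjusted p = 0.098).

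Monocyte and macrophage markers moved beside HMOX1 in NOMO1. Their summed level over 12 genes was 293.692 to 332.589 CPM in DMSO day 6, 2265.64 to 2403.53 with VTP-50469 day 6 and 1921.31 to 2144.9 with the combination, with 11 of 12 genes called higher in each and none at 0. Neutrophil markers rose there too, 7 of 7 tested under each treatment. At NOMO1 day 3 the sum was already 813.638 to 927.398 with VTP-50469 while HMOX1 overlapped its vehicle. In OCI-AML3 the sum was 121.914 to 142.825 in DMSO day 6, 138.669 to 152.034 with VTP-50469 and 397.258 to 423.757 with the combination, where C1QA, MRC1 and MSR1 were at 0. VCAN alone had a mean of 229 CPM with the combination and 65.4 in DMSO day 6. In each of these OCI-AML3 groups 6 of the 12 genes were above 1 CPM. The summed level of 12 erythroid markers, the other setting of heavy haem traffic, was also higher in treated NOMO1, moving from 21.1 to 23.3 CPM in DMSO day 6 to 39 to 42.5 with VTP-50469 and 44.4 to 48.6 with the combination. EPOR, the erythropoietin receptor, and GATA1, an erythroid transcription factor, were called higher under each treatment there (EPOR 0.68 and 0.58, GATA1 1.5 and 2.1). In OCI-AML3 that sum was 19.9 to 21.8 CPM in DMSO day 6, 14.7 to 16.6 with VTP-50469 and 22.1 to 25.4 with the combination. Of the 12, 7 to 11 were at 0 in every group, with both alpha-globin genes at 0 in every group but OCI-AML3 VTP-50469 day 6, where HBA1 was at 0. The part of these marker changes in the HMOX1 result was not tested. In bulk RNA, more cells with a gene and more RNA per cell cannot be told apart.

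NQO1 (chr16:69706996-69726951), which reduces quinones with 2 electrons from NADH or NADPH and is a standard readout of NRF2, rose with the menin inhibitor in OCI-AML3 and not in NOMO1. Its OCI-AML3 levels were 9.56, 12 and 11.3 CPM in DMSO day 6 and 63.3, 54.5 and 61.3 with VTP-50469 day 6. With the combination at day 6 they were 34, 30.9 and 33.4 CPM, between the other groups and overlapping neither. The log2 fold changes against DMSO were 2.44 (SE 0.18, adjusted p = 1.16e-11) for VTP-50469 and 1.58 (SE 0.18, adjusted p = 1.33e-08) for the combination. The combination was below VTP-50469 by -0.87 (SE 0.16, adjusted p = 9.36e-05), which is opposite to HMOX1 in the same libraries. At day 3 VTP-50469 gave 22.3, 37.1 and 18.7 CPM against 11.8, 11.3 and 12.1 in DMSO, a log2 fold change of 1.15 (adjusted p = 2.78e-05), and the combination gave 23.2, 28.5 and 20.7, also without overlap.

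In NOMO1, NQO1 was 12.2, 14.8 and 12.8 CPM in DMSO day 6, 13, 15.8 and 18.1 with VTP-50469 and 8.37, 8.38 and 6.25 with the combination. VTP-50469 overlapped the vehicle (0.24, SE 0.15, adjusted p = 0.196), and the combination fell below it without overlap (-0.79, SE 0.15, adjusted p = 7.79e-05). The combination was lower than VTP-50469 in this line too, at -1.02 (SE 0.15, adjusted p = 1.02e-05). Selumetinib alone gave 16.2, 17.2 and 15.8 CPM, above every DMSO library, with a log2 fold change of 0.70 against DMSO day 3 (adjusted p = 0.000317) and 0.31 against DMSO day 6 (adjusted p = 0.12). Another gene, AC092115.2, lies antisense to NQO1. It shares 575 exonic bases with it, and the libraries carry no strand, so reads from the 2 cannot be separated there. The line difference in the effect of VTP-50469 on NQO1 was -2.14 (SE 0.23, adjusted p = 4.97e-10) and that of the combination -2.31 (SE 0.24, adjusted p = 1.47e-10), NOMO1 minus OCI-AML3.

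Epithelial and stromal markers moved in the OCI-AML3 libraries in which NQO1 was highest. Of 8 such markers, only VIM, which myeloid cells also express, was above 1 CPM in DMSO day 6, where EPCAM, KRT18, CDH1 and COL1A1 were at 0. With VTP-50469 day 6, 7 of 8 were above 1 CPM, 5 of 6 tested were called higher and none was at 0, and their summed level was 768.574 to 792.913 CPM against 522.732 to 543.432. Most of that sum was VIM, at 721, 737 and 682 CPM with VTP-50469 and 531, 521 and 543 in DMSO. COL1A2, a collagen chain, was 0.59, 0.288 and 0.11 CPM in DMSO day 6 and 59.9, 47 and 60.3 with VTP-50469, and KRT8, a keratin, was 6.05, 2.05 and 12 CPM with VTP-50469. At day 3 of VTP-50469, COL1A2 was 2.42, 18.5 and 2.5 CPM, highest in replicate 2 as NQO1 was. COL1A1 (0.464, 3.06 and 0.102 CPM), VIM (548, 634 and 504 CPM), KRT18, CDH1 and PDGFRB were also highest in replicate 2 there. KRT8 (1.39, 0.953 and 0.204 CPM) and EPCAM (0.516, 0.1 and 0.153 CPM) were highest in replicate 1. At day 6 of VTP-50469, KRT8 was highest in replicate 3 and NQO1 in replicate 1. Replicate 2 was the lowest for NQO1 and also for KRT8, KRT18, CDH1, COL1A1 and COL1A2. EPCAM was lowest in replicate 1, and PDGFRB and VIM in replicate 3. With the combination at day 6, where NQO1 was also raised, EPCAM, KRT18 and CDH1 were at 0, COL1A2 was 7.53, 3.21 and 4.17 CPM, and the sum of 1022.72 to 1198.43 CPM was nearly all VIM. With selumetinib alone, where NQO1 was not called, 4 of 8 were above 1 CPM and none was at 0, the sum was 675 to 793 CPM, COL1A2 was 4.22, 1.33 and 2.34 CPM and KRT8 was 3.64, 0.866 and 0.082. Whether cells of another kind were present, or the leukaemia cells made these transcripts, cannot be told apart here, and their part in the VTP-50469 results of OCI-AML3 was not tested. Such transcripts were not particular to OCI-AML3. In NOMO1, 5 to 7 of the 8 markers were above 1 CPM in every group, vehicle included. In NOMO1 DMSO day 6, KRT8 was 127, 132 and 127 CPM and COL1A1 23, 22.8 and 25.4, while COL1A2 was 0.173, 0.0662 and 0.0384.

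The 2 subunits of glutamate-cysteine ligase, the rate-limiting enzyme of glutathione synthesis, differed in which line they rose most. GCLC (chr6:53497341-53616970), the catalytic subunit, was 17.8, 17.3 and 17.8 CPM in NOMO1 DMSO day 6, 49.6, 52.2 and 55.7 with VTP-50469 and 35.5, 47.5 and 59.3 with the combination. Both treated groups lay above every DMSO library and overlapped each other. The log2 fold changes were 1.57 (SE 0.12, adjusted p = 2.54e-11) and 1.43 (SE 0.12, adjusted p = 8.11e-11). In OCI-AML3 the same groups were 21.1, 20.3 and 19.9 CPM, 22.3, 30.8 and 27.1, and 22.1, 21.1 and 21.1. VTP-50469 was called there (0.38, SE 0.12, adjusted p = 0.0144), a call that was lost without DMSO day 6 replicate 2 or 3, without VTP-50469 replicate 2 (0.27, adjusted p = 0.14) or with no filter on low counts. The combination was not called (0.07, SE 0.12).

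GCLM (chr1:93885205-93909456), the modifier subunit that lowers the enzyme's feedback inhibition by glutathione, was 32.5, 31.6 and 31 CPM in OCI-AML3 DMSO day 6. It was 47.3, 44.4 and 41.6 CPM with VTP-50469 and 57.7, 69.8 and 66.9 with the combination, 3 groups with no overlap. The log2 fold changes were 0.49 (SE 0.10, adjusted p = 0.000346) and 1.03 (SE 0.10, adjusted p = 1.19e-09), and the combination exceeded VTP-50469 by 0.54 (SE 0.10, adjusted p = 6.33e-05). In NOMO1 it was 17.6, 17.8 and 17.7 CPM in DMSO day 6, 19.6, 18.9 and 17.9 with VTP-50469 and 21.7, 18.8 and 19.9 with the combination. The log2 fold changes of 0.09 and 0.18 (SE 0.12 each) were not called. Neither group overlapped the vehicle, but for VTP-50469 that rests on 17.9 against 17.8 CPM. The line difference in the combination effect was positive for GCLC (1.42, SE 0.17, adjusted p = 5.48e-09) and negative for GCLM (-0.79, SE 0.15, adjusted p = 5.41e-05). For VTP-50469 it was 1.26 (SE 0.17, adjusted p = 6.5e-08) for GCLC and -0.33 (SE 0.15, adjusted p = 0.0928) for GCLM.

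**Figure D2:**
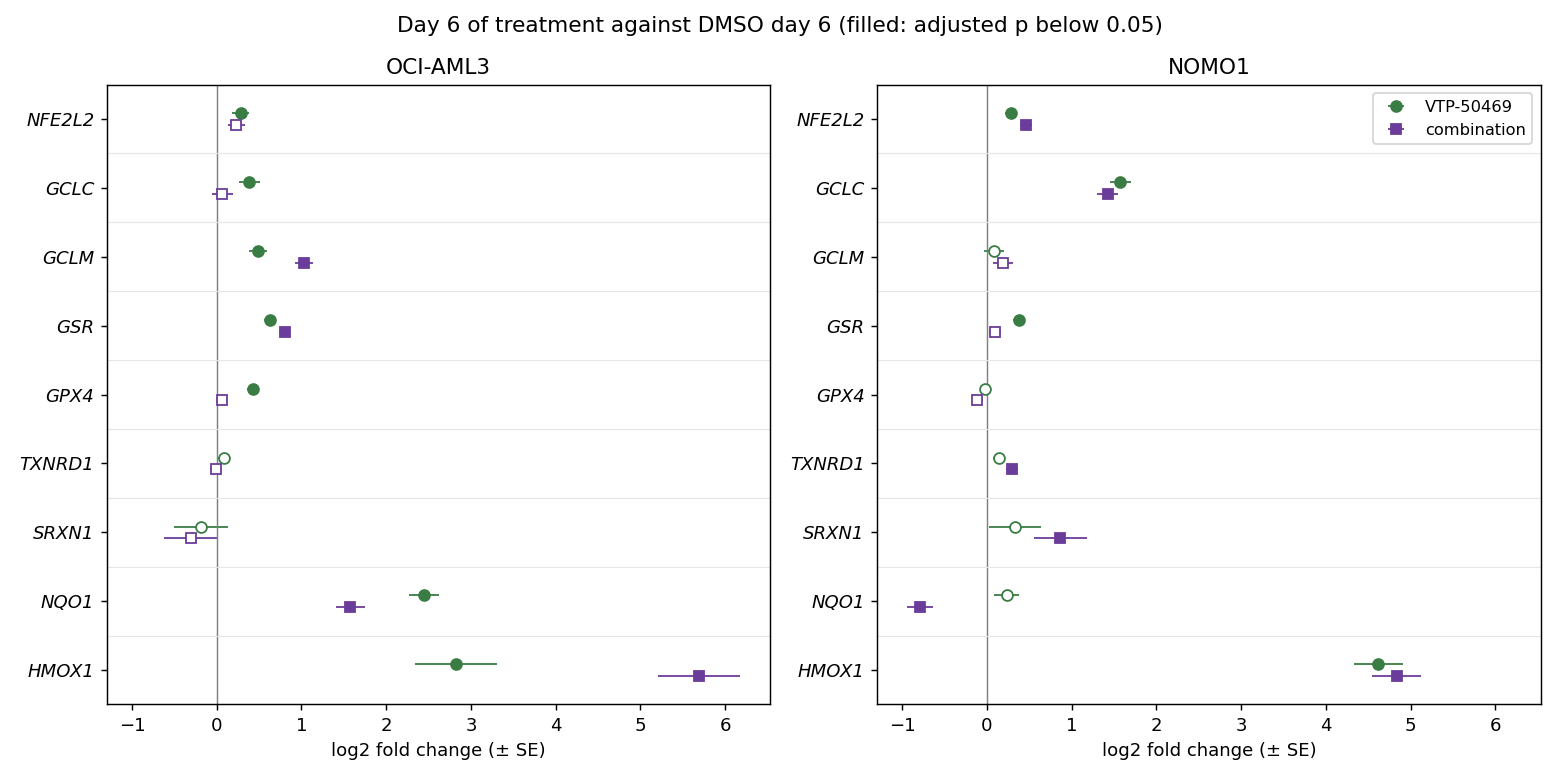
Log2 fold change with its standard error for the 9 genes at day 6 of VTP-50469 (circles) and of the combination (squares), each against DMSO day 6, in OCI-AML3 (left) and NOMO1 (right). Filled symbols have an adjusted p below 0.05. HMOX1 lies farthest to the right in both lines, NQO1 and GCLM are raised in OCI-AML3, and GCLC is raised in NOMO1.

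GSR (chr8:30678061-30727999), the reductase that returns oxidised glutathione to its reduced form, changed by less but with little scatter. OCI-AML3 libraries held 121, 127 and 125 CPM in DMSO day 6, 192, 194 and 191 with VTP-50469 and 203, 219 and 229 with the combination. Both rises were free of overlap, at 0.63 (SE 0.07, adjusted p = 8.71e-09) and 0.80 (SE 0.07, adjusted p = 2.44e-11). In NOMO1, GSR was 306, 306 and 286 CPM in DMSO day 6, 390, 396 and 378 with VTP-50469 and 326, 320 and 314 with the combination. Neither treatment overlapped the vehicle, but only VTP-50469 was called (0.37, SE 0.07, adjusted p = 0.000101), and the combination was below it by -0.28 (SE 0.07, adjusted p = 0.00501). The combination effect differed between the lines by -0.65 (SE 0.10, adjusted p = 4.35e-07).

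GPX4 (chr19:1103926-1106791), the selenoprotein that removes lipid peroxides and thereby holds off ferroptosis, rose in OCI-AML3 with VTP-50469 at day 6. Its levels there were 291, 294 and 309 CPM in the vehicle, 399, 403 and 398 with VTP-50469 and 306, 332 and 294 with the combination. VTP-50469 did not overlap the vehicle (0.42, SE 0.07, adjusted p = 2.23e-05), the combination did, and the combination was below VTP-50469 by -0.36 (SE 0.07, adjusted p = 0.000149). In NOMO1 day 6 the 3 groups held 157, 158 and 165, then 157, 166 and 151, then 151, 148 and 146 CPM, and neither treatment was called. The combination libraries nevertheless all lay below the vehicle, while those of VTP-50469 overlapped it. The line difference in the VTP-50469 effect was -0.38 (SE 0.09, adjusted p = 0.000908).

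TXNRD1 (chr12:104215779-104350305), the cytosolic thioredoxin reductase, changed little at day 6. In OCI-AML3 it was 173, 165 and 160 CPM in the vehicle, 184, 176 and 168 with VTP-50469 and 169, 164 and 161 with the combination, all overlapping. In NOMO1 it was 184, 165 and 186 CPM in the vehicle, 197, 200 and 193 with VTP-50469 and 220, 224 and 211 with the combination. The combination was called (0.29, SE 0.07, adjusted p = 0.000812) and VTP-50469 was not (0.14, SE 0.07, adjusted p = 0.101), although neither overlapped the vehicle. SRXN1, which repairs over-oxidised peroxiredoxins, was counted at 42 to 95 reads per OCI-AML3 library at day 6 and at 97 to 257 per NOMO1 library. It was called only for the combination in NOMO1, at 10.5, 9.52 and 7.85 CPM against 5.72, 5.66 and 3.96 (0.87, SE 0.31, adjusted p = 0.0201). That call was lost without DMSO day 6 replicate 3 (0.70, adjusted p = 0.11) or without combination replicate 1 or 2.

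NFE2L2 RNA itself (chr2:177227595-177392697) changed by at most 0.46 on the log2 scale at day 6. In NOMO1 it was 51.5, 56 and 47.1 CPM in DMSO day 6, 61.6, 61.7 and 65.1 with VTP-50469 and 67.5, 71.9 and 73.7 with the combination, with no overlap of either treatment with the vehicle. The log2 fold changes were 0.28 (SE 0.07, adjusted p = 0.00188) and 0.46 (SE 0.07, adjusted p = 4.29e-06). In OCI-AML3 it was 73.6, 64.3 and 55.4 CPM in the vehicle, 81.3, 78.9 and 74.9 with VTP-50469 and 65.4, 83.8 and 77.6 with the combination. VTP-50469 was called (0.28, SE 0.10, adjusted p = 0.0263), a call lost without DMSO day 6 replicate 2 or 3 or VTP-50469 replicate 1 or 2, and down to 0.18 (adjusted p = 0.24) without DMSO replicate 3. The combination was not called (0.23, SE 0.10, adjusted p = 0.0546), but was without DMSO replicate 1 (0.32, adjusted p = 0.015) or without combination replicate 1. The exons of NFE2L2 share 1298 bases with those of 3 other genes, so its counts may be incomplete.

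Fewer genes were called at day 3 of VTP-50469 in OCI-AML3 than at day 6. VTP-50469 raised 3 of 9 genes (NQO1, GSR and GCLM) and lowered none, with 10.9% of all genes called. GCLM at 0.33 (SE 0.10, adjusted p = 0.0327) lost its call without any 1 of DMSO day 3 replicate 1 or 2 or VTP-50469 replicate 1 or 2. The combination raised HMOX1 by 3.50 (SE 0.47, adjusted p = 3.51e-07), NQO1 by 1.04, GCLM by 0.59 and GSR by 0.37 and lowered SRXN1, with 48.1% of all genes called. SRXN1 fell to 2.53, 1.16 and 4.17 CPM from 5.34, 5.58 and 4.35 (-0.95, SE 0.32, adjusted p = 0.0153), and it was not called without combination replicate 2 (-0.61, adjusted p = 0.11) or DMSO replicate 2. Selumetinib alone raised none of the 9 and lowered NFE2L2 (-0.29, SE 0.10, adjusted p = 0.0311) and TXNRD1 (-0.22, SE 0.07, adjusted p = 0.0125), where 27.4% of all genes were called. NFE2L2 was 54.4, 52.3 and 52.4 CPM against 62.5, 68.3 and 63.3, and TXNRD1 148, 139 and 141 against 167, 163 and 167, without overlap. Neither fall was called without selumetinib replicate 2 or 3, nor that of NFE2L2 without selumetinib replicate 1 or DMSO replicate 2 or 3. These 3 comparisons share the DMSO day 3 libraries. Between the DMSO groups themselves, day 6 against day 3, no gene was called by edgeR (0% of all genes), with 174 of 16384 at an unadjusted p under 0.05 and 1 called by DESeq2, which was none of the 9. The 174 are fewer than that threshold would give with no change at all, so the edgeR test may be conservative here. It does not show that the DMSO days are equal.

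Added to VTP-50469 in OCI-AML3, selumetinib changed 5 of 9 genes at day 3 and 6 of 9 at day 6, with 42.2% and 41.3% of all genes called. At day 3 HMOX1 and GCLM were higher with the combination and TXNRD1 (-0.31), GPX4 (-0.33) and SRXN1 (-1.21) lower. At day 6 HMOX1, GCLM and GSR (0.17) were higher and NQO1, GPX4 and GCLC (-0.32) lower. At day 3 the GCLM call was lost without VTP-50469 replicate 2 or 3 or combination replicate 1 or 2. At day 6 the GCLC call was lost without VTP-50469 replicate 2 or 3 or combination replicate 2 or 3, and the GSR call without any VTP-50469 library or combination replicate 2 or 3. A further test asked whether the combination differed at day 3 from the sum of the single drugs. Since the time of selumetinib in the combination was not stated, a difference in exposure time cannot be told apart from such a departure. The test called 0 of 9 genes in edgeR, with 8.94% of all genes called, and 2 in DESeq2, HMOX1 and GCLM. Its HMOX1 estimate was 1.85 (SE 0.70, adjusted p = 0.103), and without VTP-50469 day 3 replicate 2, whose 2.06 CPM is the highest of that group, it was 2.79 (adjusted p = 0.0038), and 2.34 (adjusted p = 0.024) without DMSO replicate 2. From day 3 to day 6, VTP-50469 raised 4 genes further, NQO1 (1.20), HMOX1 (1.57), GSR (0.34) and GPX4 (0.20), with 18.5% of all genes called, and the combination raised HMOX1 (2.06), GSR (0.47) and GCLM (0.41), with 15% called. The HMOX1 and GPX4 rises under VTP-50469 were not called without VTP-50469 day 3 replicate 1 or 3 or day 6 replicate 3, nor that of GPX4 without day 6 replicate 1 or 2. The GCLM rise with the combination was not called without day 6 replicate 2. Without combination day 3 replicate 3 the number called between the combination days was 5 in place of 3, SRXN1 and GPX4 joining the rises, and without replicate 2 NQO1 joined them.

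In NOMO1 the day 3 comparisons changed with the vehicle group that served as control. DMSO day 6 differed from DMSO day 3 in 6 of 9 genes, where 51% of all genes were called. SRXN1 was 0.767, 0 and 0.591 CPM in DMSO day 3, from 28 reads in 3 libraries, and 5.72, 5.66 and 3.96 in DMSO day 6 (3.47, SE 0.43, adjusted p = 2.68e-07). GPX4 was 258, 264 and 272 CPM at day 3 and 157, 158 and 165 at day 6 (-0.72, SE 0.06), GCLM 10.5 in each library and then 17.6, 17.8 and 17.7 (0.75, SE 0.12), and TXNRD1 123, 118 and 107 and then 184, 165 and 186 (0.62, SE 0.07). None of these pairs overlapped. NFE2L2 (0.27) and NQO1 (0.39) were also called higher at day 6, the latter not by DESeq2, nor without DMSO day 3 replicate 3 or DMSO day 6 replicate 2. With mitochondrially encoded genes removed before scaling, 6 genes were still called. The part of whatever set the mitochondrial share of these libraries was not tested.

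Against DMSO day 3, VTP-50469 at day 3 gave 6 calls in NOMO1 (52.4% of all genes called), selumetinib 9 (54.1%) and the combination 6 (58.7%), and the 3 comparisons share those libraries. In each, SRXN1 stood at 3.27 to 4.12 and GPX4 at -1.21 to -0.97. Against DMSO day 6 the numbers were 1, 4 and 3. VTP-50469 then left only GPX4 lower, at 132, 130 and 143 CPM. Selumetinib left GCLC higher, at 27, 27.6 and 26.4 CPM against 17.8, 17.3 and 17.8, and GPX4 (123, 119 and 121 CPM), GSR (245, 251 and 248 CPM) and TXNRD1 lower. The combination left GCLC higher, at 24.3, 26.5 and 25.3 CPM, and lowered GPX4 (108, 121 and 113 CPM) and NQO1 (7.71, 8.7 and 8.13 CPM, -0.70, adjusted p = 0.00045). GCLC and GPX4 therefore kept their direction and their call with either control for selumetinib and the combination, whereas GCLM, TXNRD1, NFE2L2 and SRXN1 lost their rise. GCLM was 15.4, 18 and 16.9 CPM with VTP-50469, 18.5, 15.3 and 12.6 with selumetinib and 17.5, 18.5 and 16.1 with the combination, around the DMSO day 6 level.

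**Figure D3:**
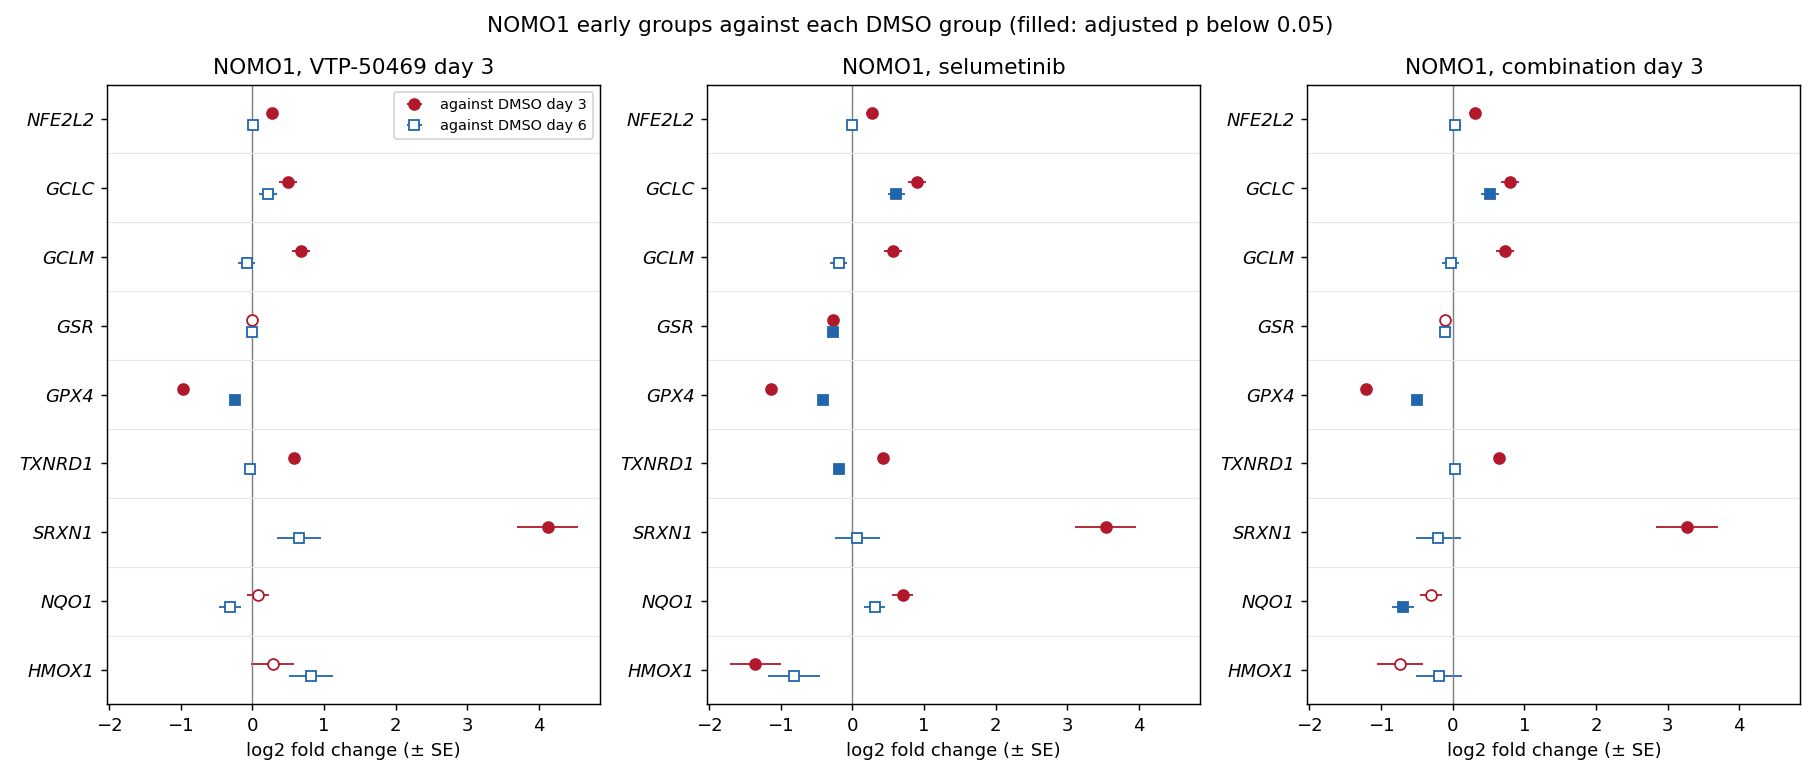
Log2 fold change with its standard error in NOMO1 for VTP-50469 day 3, selumetinib and the combination day 3, each against DMSO day 3 (red circles) and against DMSO day 6 (blue squares). Filled symbols have an adjusted p below 0.05. SRXN1 lies between 3.27 and 4.12 against DMSO day 3 and near 0 or below 1 against DMSO day 6, while GPX4 stays below 0 with both.

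Comparisons within the treated NOMO1 groups do not use the day 3 vehicle. At day 3 the combination was below VTP-50469 in 3 of 9 genes, HMOX1 (-1.01), SRXN1 (-0.85) and GPX4 (-0.24), where 35.2% of all genes were called. Without VTP-50469 day 3 replicate 1, the library with 10.8 CPM of HMOX1, that gene was not called (-0.49, adjusted p = 0.088), nor was it without combination replicate 1 or 3. SRXN1 was not called without VTP-50469 replicate 1 or 3 or any combination library. At day 6 it was lower in 2, NQO1 and GSR, where 27.6% were called. Between day 3 and day 6, VTP-50469 raised 7 of 9 genes and lowered none, with 42.2% of all genes called, and the combination raised 7 and lowered none, with 40.2% called. HMOX1 rose by 3.80 (SE 0.27) and 5.02 (SE 0.29), and GCLC by 1.36 (SE 0.12) and 0.90 (SE 0.12). GPX4 rose by 0.23 and 0.38, NFE2L2 by 0.27 and 0.42, GSR by 0.38 and 0.20 and TXNRD1 by 0.18 and 0.27, while NQO1 rose only with VTP-50469 (0.54) and SRXN1 only with the combination (1.06). Whether NQO1 and SRXN1 differ in this between the treatments was not tested. The TXNRD1 rise with VTP-50469 was lost without VTP-50469 day 3 replicate 1 or 2 or any day 6 library, and the combination's SRXN1 rise without day 3 replicate 3 and its GSR rise without day 3 replicate 1 or 2 or day 6 replicate 1 or 2. The departure of the day 3 combination from the sum of the single drugs was called for 6 of 9 genes with DMSO day 3 in the contrast (37% of all genes called) and for 1 with DMSO day 6, namely NQO1. As in OCI-AML3, a difference in the time of selumetinib cannot be told apart from it.

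Between the lines, the effect of VTP-50469 at day 6 differed for 3 of 9 genes (GCLC, NQO1 and GPX4), where 33.4% of all genes were called, and that of the combination for 6 (GCLC, GCLM, GSR, NQO1, SRXN1 and TXNRD1), where 34.9% were called. SRXN1 (1.23, SE 0.47, adjusted p = 0.0388) lost its call without OCI-AML3 combination replicate 1 (1.03, adjusted p = 0.11) or 2, OCI-AML3 DMSO replicate 1 or 2, NOMO1 DMSO replicate 3 or NOMO1 combination replicate 1 or 2. TXNRD1 (0.36, SE 0.09, adjusted p = 0.00161) lost its call on plain library totals (0.20). For HMOX1 the difference was 1.85 (SE 0.74, adjusted p = 0.0523) with VTP-50469 and -0.81 (SE 0.61, adjusted p = 0.343) with the combination, so a line difference in its rise was not shown. Without OCI-AML3 VTP-50469 replicate 3 the former was called (2.25, adjusted p = 0.022), as it was without NOMO1 DMSO day 6 replicate 1. The selumetinib effect differed for 8 genes where 33.7% of all genes were called, and for 1, GCLC, with DMSO day 6 as control.

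SLC7A11, which brings in cystine for glutathione synthesis, fell in OCI-AML3 and rose in NOMO1. Of 7 genes of glutathione supply, 1 rose and 4 fell in OCI-AML3 with VTP-50469 at day 6 (median log2 fold change -0.46, beside 0.01 for all genes), and none rose and 6 fell with the combination (median -1.50, beside 0.00), with 18.8% and 23.1% of all genes called higher and 16% and 26.5% lower. SLC7A11 was 97.8, 98.7 and 88 CPM in DMSO day 6, 27.3, 32 and 29.2 with VTP-50469 and 12.1, 10.4 and 7.77 with the combination. None of these groups overlapped, and the log2 fold changes were -1.68 (SE 0.14) and -3.23 (SE 0.15). CHAC1, which breaks glutathione down and is counted among the 7, fell by 1.78 and 5.34. SLC3A2, the partner chain of SLC7A11, fell by 0.62 and 2.39. The counts and medians of the 7 genes are therefore not of supply alone. Selumetinib alone also lowered 6 of the 7 in OCI-AML3, SLC7A11 to 47, 33.8 and 33.1 CPM from 96.8, 107 and 114, whereas VTP-50469 at day 3 left SLC7A11 at 94.4, 78 and 102, overlapping DMSO.

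In NOMO1, SLC7A11 was 3.68, 4.14 and 2.84 CPM in DMSO day 6, 25.8, 24.8 and 29.5 with VTP-50469 and 26.1, 25.7 and 33 with the combination. It rose without overlap by 2.90 (SE 0.37) and 2.99 (SE 0.37). The line difference was 4.65 (SE 0.40, adjusted p = 5.81e-11) for VTP-50469 and 6.27 (SE 0.41, adjusted p = 2.14e-13) for the combination. Of the 7 genes, 2 rose and 3 fell with VTP-50469 and 1 rose and 3 fell with the combination, with GSS (glutathione synthetase) at -0.57 and -0.80 and GGCT, which acts on gamma-glutamyl amino acids, at -1.06 and -0.97. In NOMO1 23.7% and 27.3% of all genes were called higher, and 25.1% and 28.2% lower.

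Genes of haem and iron handling rose more often than they fell. The shares of all genes called higher and lower, given above with glutathione supply, apply to the counts of this and the following lists. Of 8, 6 rose and none fell in OCI-AML3 with VTP-50469 at day 6 and 7 rose and none fell with the combination (medians 0.64 and 1.61). In NOMO1 5 rose and 2 fell with VTP-50469 and 5 rose and 3 fell with the combination (medians 0.83 and 1.07). FTH1, the ferritin heavy chain, was 162, 156 and 169 CPM in OCI-AML3 DMSO day 6, 389, 377 and 381 with VTP-50469 and 499, 493 and 528 with the combination. In NOMO1 it was 334, 335 and 305 CPM, then 1812, 1882 and 2010, then 1649, 1877 and 1952. No treated library overlapped the vehicle in either line, although reads of FTH1 could be shared with its many near-identical copies. SLC48A1, which moves haem out of lysosomes, rose by 1.29 and 1.92 in OCI-AML3 and by 1.03 and 1.26 in NOMO1, and BLVRA, which reduces biliverdin, rose by 0.92 with VTP-50469 in OCI-AML3. In NOMO1 BLVRA was lower, at 38.2, 36.3 and 38.8 CPM with VTP-50469 against 46.3, 45.7 and 47.4 in DMSO day 6. With the combination it was 34.3, 37 and 38.3 CPM. By group mean FECH and HMOX2, also among the 8, were lower there too. FECH went from 40.9 CPM to 30.2 and 24.4, and HMOX2 from 35.2 to 30.3 and 23.3.

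**Figure D4:**
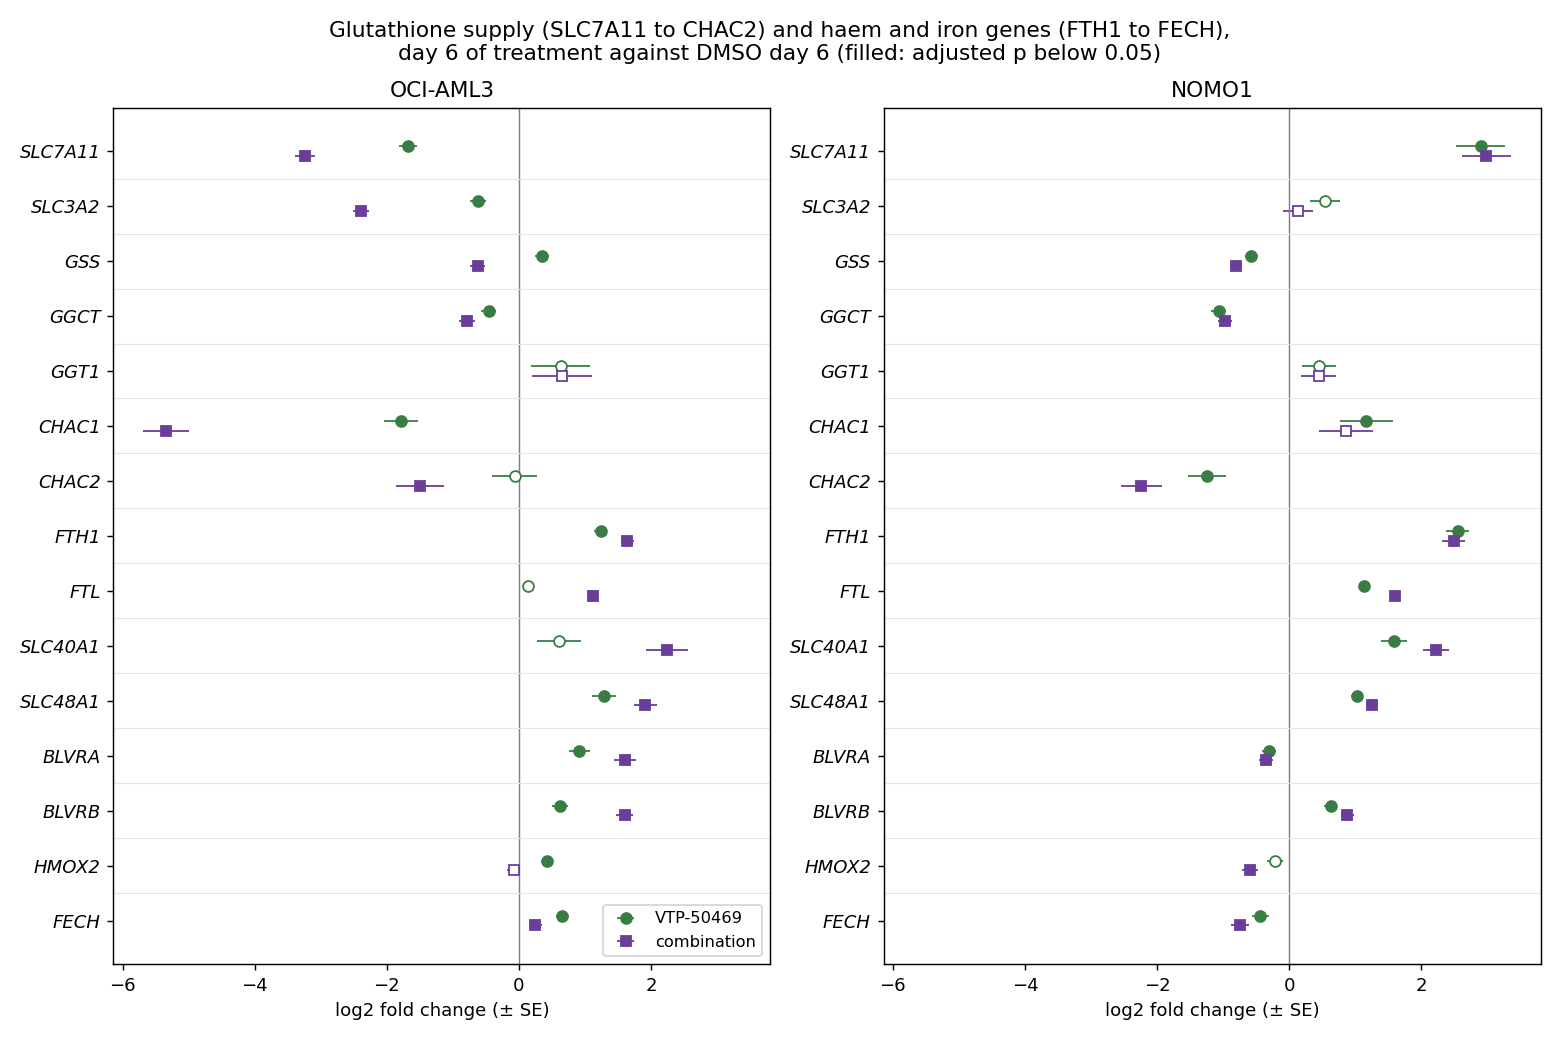
Log2 fold change with its standard error for all 7 genes of glutathione supply and all 8 of haem and iron handling at day 6 of VTP-50469 (circles) and of the combination (squares) against DMSO day 6. Filled symbols have an adjusted p below 0.05. SLC7A11 lies at -1.68 and -3.23 in OCI-AML3 and at 2.90 and 2.99 in NOMO1, and FTH1 is raised in both lines.

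Thioredoxin genes were raised or lowered depending on line and treatment. Of 11, 6 rose and none fell in OCI-AML3 with VTP-50469 at day 6 (3 rose without DMSO day 6 replicate 3), and 2 rose and 5 fell with the combination, with medians of 0.20 and -0.19. In NOMO1 2 rose and 8 fell under each treatment, with medians of -0.52 and -0.56. PRDX2 and PRDX4, peroxiredoxins that remove hydrogen peroxide, rose by 0.93 and 0.85 with VTP-50469 in OCI-AML3, while PRDX1, PRDX3 and PRDX4 fell by 1.81, 1.01 and 2.27 with the combination in NOMO1. TXNIP, an inhibitor of thioredoxin, rose by 2.69 and 3.62 in NOMO1.

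Other NRF2 targets rose in OCI-AML3 with VTP-50469 more often than they fell. Of 14 tested, 9 rose and none fell (median 0.47), led by AKR1C3 (1.89, SE 0.18), CBR3 (1.54, SE 0.27), CBR1 (0.53) and AKR1B1 (0.45), which reduce carbonyls. Epithelial and collagen transcripts also rose in these libraries. With the combination 6 rose and 4 fell in that line (median 0.44), EPHX1 and ABHD4 rising by 0.91 and 1.78. In NOMO1 6 rose and 5 fell with VTP-50469 and 7 rose and 3 fell with the combination (medians 0.11 and 0.54), with NQO2 at 1.76 and 1.84 and CBR1 at -1.19 and -1.37. AKR1C1 fell by 4.02 with the combination in OCI-AML3 and rose by 1.85 and 2.08 in NOMO1, though its reads are hard to tell from those of AKR1C2.

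Among 13 users of glutathione, 7 rose and 1 fell in OCI-AML3 with VTP-50469 and 7 rose and 4 fell with the combination (medians 0.70 and 0.27). GSTP1, a glutathione transferase, rose by 1.52 and 0.84 in them, MGST1 by 0.75 and 1.48 and MGST3 by 1.13 and 1.56. Of the 12 tested in NOMO1, 4 rose and 5 fell with VTP-50469 and 3 rose and 6 fell with the combination (medians -0.28 and -0.20), with MGST1 at -0.93 and -1.27 and GPX7 at -1.72 and -1.55. NADPH supply, which powers GSR, TXNRD1 and NQO1, rose in 2 of 6 genes and fell in 1 with VTP-50469 in OCI-AML3 (4 and 1 on plain library totals) and in 5 and 1 with the combination, and in NOMO1 in 4 and 2 and in 4 and 1. TKT, the transketolase of the pentose phosphate pathway, was at -0.99 and -0.78 in OCI-AML3 and at 0.99 with the combination in NOMO1.

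Of 5 other enzymes against oxidants, 2 rose and none fell under each treatment in OCI-AML3, CAT (catalase) by 1.05 and 1.77. With the combination 1 rose without DMSO replicate 1 or without combination replicate 3. In NOMO1 3 rose and 2 fell with VTP-50469 and 3 rose and 1 fell with the combination, led by SOD2, the mitochondrial superoxide dismutase, at 1.98 and 1.48. Genes of selenoprotein synthesis, on which GPX4 and TXNRD1 depend, had medians between -0.11 and -0.05 in all 4 comparisons, with 3 of 10 called in each OCI-AML3 comparison and 5 and 4 in NOMO1. The count for VTP-50469 was 1 in OCI-AML3 without DMSO replicate 1 and 3 in NOMO1 without VTP-50469 replicate 3.

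The regulators of NRF2 moved in both directions. Of 9, 3 rose and 3 fell in OCI-AML3 with VTP-50469 (34.7% of all genes called), and 2 rose and 1 fell with the combination (49.6%). In NOMO1 6 rose and 1 fell with VTP-50469 (48.8% of all genes called), and 4 rose and 2 fell with the combination (55.4%). The combination count was below the background share in OCI-AML3 and near it in NOMO1. BACH1, the repressor, fell by 0.35 with VTP-50469 in OCI-AML3 and rose by 0.24 with the combination, while in NOMO1 it rose by 0.85 and 1.20, in libraries where HMOX1 also rose. KEAP1 rose by 0.43 with VTP-50469 in OCI-AML3. SQSTM1, the autophagy receptor that draws KEAP1 away from NRF2, rose by 1.13 with the combination in OCI-AML3 and by 1.58 and 1.36 in NOMO1. NFE2L1, a relative of NRF2, was at -0.53 and -1.01 in OCI-AML3 and at 0.60 and 0.62 in NOMO1.

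The genes whose group means followed each of the 9 most closely were found over the 14 groups after subtraction of each line's mean, among 10133 genes. These are descriptions over means that share control groups and library scaling. GCLC was most like SLC7A7 (Pearson r = 0.98), GRINA and SIGLEC7. HMOX1 was most like TANK (0.96), SMPD1 and CTSA, and NQO1 most like DDX60 (0.93), CD109 and NDUFA8. GSR was most like ITGAX (0.95), RTN4 and BET1, and GPX4 most like DCTN6 (0.98), DDA1 and MLF2. For GCLM the closest was CDC26 (0.92), for TXNRD1 BCOR (0.96) and for NFE2L2 CLIP1 (0.94). Over the 42 single libraries, SLC7A7, TANK, DDX60, BCOR and CLIP1 remained the closest to their gene, and RBBP5, the closest to SRXN1 over groups (0.98), ranked 51.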

How the data were processed

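RNA of 42 libraries, 3 in each of 14 groups, was sequenced as unstranded paired-end reads, per the labels. The submitters' processing notes name FastQC 0.11.9, MultiQC 1.14, STAR 2.11a, featureCounts of Subread 2.0.6, DESeq2 1.44.0 and build hg38. The authors deposited raw read counts per gene, unscaled. Of the columns, 3 that match no labelled library and equal the OCI-AML3 selumetinib columns in all 58870 rows were not used, and a gene whose row lacked 1 value was dropped. Each line was fitted on its own (21 libraries) with edgeR 4.0.16 in R 4.3.3, using filterByExpr, TMM scaling and robust quasi-likelihood tests. Line differences came from 1 fit of all libraries. The method was checked on simulated counts. Positions are from GENCODE 29 and sequences from RefSeq. All 9 genes and up to 4 called genes of smallest adjusted p per list and comparison could be named, of which a part is printed. The genes, lists and rules were chosen with earlier results of these data known. Sample titles spell the menin inhibitor VTP-50649, and the spelling of the series description is used here. Alternatives were DESeq2 1.42.0, other scaling and filters, DMSO day 6 as control and leaving out each library. For SRXN1 and HMOX1, few reads limit the precision.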

Additional observations from a re-analysis of the deposited data

Results flagged for a closer look

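The effect of a treatment differed between the lines, by a test of the difference in 1 fit of all libraries, for the genes below (log2, NOMO1 minus OCI-AML3). For VTP-50469 at day 6 these were GCLC at 1.26, NQO1 at -2.14 and GPX4 at -0.38. For the combination at day 6 they were GCLC at 1.42, GCLM at -0.79, NQO1 at -2.31, TXNRD1 at 0.36, SRXN1 at 1.23 and GSR at -0.65. For selumetinib they were GCLC at 0.94, GCLM at 0.77, NQO1 at 1.01, HMOX1 at -1.87, TXNRD1 at 0.70, SRXN1 at 4.41, GPX4 at -0.92 and NFE2L2 at 0.61. The selumetinib values use DMSO day 3, and with DMSO day 6 GCLC alone was called among the 9. HMOX1 in that contrast (adjusted p = 0.0499) lost its call with any 1 of 11 of the 12 libraries left out.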

How the results depend on the processing

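Over settings other than leaving out a library, 1824 of 1953 log2 fold changes of the 9 genes kept their direction and side of the threshold, 62 lost a call, 54 gained one and 13 changed sign. With 1 library left out, 1565 of 1674 kept both, 85 lost a call and 24 gained one. The cause of these changes was not tested.

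With DMSO day 6 as control, the number of the 9 genes called fell from 6 to 1 for VTP-50469 day 3 in NOMO1, from 9 to 4 for selumetinib, from 6 to 3 for the combination day 3, from 6 to 1 for the drug interaction and from 8 to 1 for the line difference in the selumetinib effect. In the same setting GCLM turned to -0.078, -0.19 and -0.028 for VTP-50469, selumetinib and the combination, to 0.24 for the interaction and to -0.033 for the line difference in the selumetinib effect, TXNRD1 to -0.037 and -0.19 for VTP-50469 and selumetinib and to 0.25 for the interaction, and SRXN1 to -0.20 for the combination. All genes called in NOMO1 fell from 8680 to 4499 for VTP-50469 day 3 and from 8957 to 5328 for selumetinib.

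With plain library totals, GSR in NOMO1 turned to 0.32, 0.11 and 0.20 for VTP-50469 day 3, selumetinib and the combination day 3 against DMSO day 3, and NFE2L2 between the lines to -0.21. Library totals called 5 genes in place of 3 for VTP-50469 day 3 in OCI-AML3, 0 in place of 2 for selumetinib and 5 in place of 3 for the line difference in the VTP-50469 effect, where removal of mitochondrial genes also gave 5. With only the compared groups fitted, that line difference gave 6, VTP-50469 day 6 against day 3 in OCI-AML3 gave 2 in place of 4, and the combination against VTP-50469 in NOMO1 gave 1 in place of 3 at day 3 and 6 in place of 2 at day 6. With no filter, selumetinib in OCI-AML3 gave 1 and the interaction 1. DESeq2 gave 2 for that interaction.

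Leaving out 1 library at a time gave 0 to 2 genes for selumetinib in OCI-AML3, 0 to 1 for the interaction, 2 to 4 for VTP-50469 day 6 against day 3, 2 to 5 for the combination day 6 against day 3, and 1 to 3 for the combination against VTP-50469 at day 3 in NOMO1. All genes called for VTP-50469 day 3 in OCI-AML3 fell from 1788 to 964 without VTP-50469 replicate 2.

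No pairing of libraries by replicate number was seen. After removal of group means, same-numbered libraries correlated between -0.0762 and 0.0428 (OCI-AML3) or -0.0626 and 0.0448 (NOMO1). This does not show whether same-numbered libraries were prepared together. With a replicate block the number of genes called at day 6 against DMSO was 7 for VTP-50469 in OCI-AML3, 5 in place of 4 for the combination, and 4 and 6 in NOMO1, with 7 in place of 8 for the line difference in the selumetinib effect. Depth limits HMOX1 in OCI-AML3 and SRXN1 in NOMO1 DMSO day 3.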
